A study of Mus musculus with 32 samples.

Results

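The genes described here belong to cyclic AMP (cAMP) signalling and were measured in microdissected mouse photoreceptor samples. They are 8 named genes, chosen by symbol from a table of 54232 Ensembl genes: the G protein subunit Gnaz, the adenylyl cyclases Adcy1, Adcy2 and Adcy8, the phosphodiesterases Pde10a and Pde4b, the kinase A subunit Prkar1b and the anchoring protein Akap5. All 8 were found and all 8 passed the filter on low counts that left 17871 genes for testing. The KO animals carried Per1-/-Per2Brdm1, which changes both genes at once, so an effect of either gene cannot be told from an effect of the other. The WT animals carried neither allele. All animals were 6 week old males of strain C57BL/6/J x 129 SvEvBrd, and rods and cones were cut from frozen eyes with a laser. Each genotype was sampled at circadian time (CT, hours of the internal day counted from subjective dawn) 19, 22, 1 and 10, with 4 libraries in each of the 8 groups and 32 libraries in all. The comparisons ask how loss of the clock genes Per1 and Per2 alters these transcripts, and whether the transcripts differ with time in each genotype.

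Adenylyl cyclases turn ATP into cAMP, inhibitory G protein alpha subunits hold the cyclases back, and phosphodiesterases break cAMP down. The signal reaches protein kinase A, whose regulatory subunits release the catalytic subunits when they bind cAMP and whose anchoring proteins keep it beside its substrates. In photoreceptors cAMP is known to follow day and night, and the dopamine D4 receptor of these cells lowers it through inhibitory G proteins.

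Library totals ran from 23833604 to 34582742 counts. Levels are given as TMM-scaled counts relative to library size (CPM), and raw counts of the 8 genes ranged from 9 for Adcy8 to 25797 for Adcy1 in a library. Whole-gene counts of the targeted genes separated the genotypes but do not check the deletions, since exons outside a deletion are counted too: Per1 averaged 208 ± 41 CPM in KO and 118 ± 18.7 in WT (SD, n = 16 each), and Per2 ran from 168 to 267 CPM in KO and from 15.2 to 44.3 in WT. Rod markers were at 11.97 ± 0.144 in KO and 12.1 ± 0.129 in WT on a log2 CPM scale. Markers of bipolar, amacrine and Müller cells, the inner retina, were present in every library, and none of their 40 genes was at 0 throughout. Their mean log2 CPM, called the inner retina level below, was 4.17 ± 0.295 in KO and 3.74 ± 0.465 in WT, and at CT10 it did not overlap between the genotypes, with 4.05 to 4.44 in KO and 2.81 to 3.59 in WT. In such bulk samples, fewer cells of a type and less RNA per cell cannot be told apart.

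Akap5 had the largest genotype difference of the 8, at 6.18-fold the WT level over the mean of the 4 times, and every KO library was above every WT library. Of the other 7 genes, 6 were called at CT10, the late subjective day, and 4 of these, Adcy1, Adcy8, Pde10a and Gnaz, at no other single time. At CT10 Adcy8, Pde10a, Pde4b, Prkar1b and Gnaz were higher in KO and Adcy1 was lower. Of all tested genes, 7.2% were called higher and 3.02% lower there. The test of any difference among the 4 times called no gene of the 8 in KO, beside 0.0056% (1 gene) of all tested genes. In WT it called 6 of the 8, beside 14.6% of all tested genes.

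**Figure D1:**
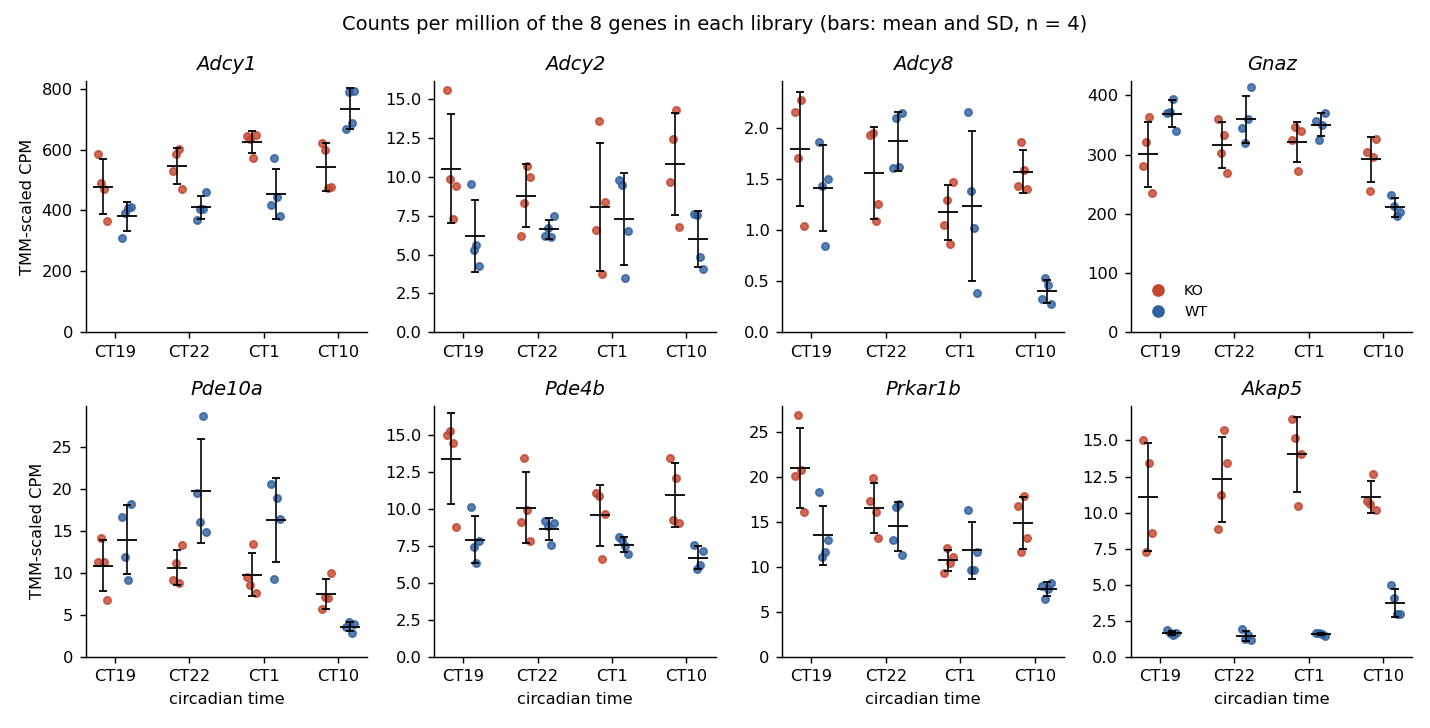
TMM-scaled CPM of the 8 genes in every library, with a panel for each gene, circadian time on the x axis and CPM from 0 on the y axis; KO points (red) stand left of WT points (blue), and bars give the mean and SD of 4 libraries. Akap5 runs from 7.27 to 16.5 CPM in KO and from 1.16 to 5.01 in WT, and the WT libraries of CT10 stand apart for Adcy1, Pde10a, Gnaz and Akap5.

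Over the mean of the 4 times, 6 of the 8 genes rose in KO and none fell, by edgeR's quasi-likelihood test with Benjamini-Hochberg adjustment over all tested genes. The same test called 16.3% of all tested genes, 9.88% higher and 6.4% lower in KO. The median log2 difference of the 8 genes was 0.46, and that of all tested genes was -0.0030. Over the mean of the 3 times other than CT10, a contrast added after the data were seen, 3 of the 8 rose (Adcy1, Pde4b and Akap5) and 2 fell (Pde10a and Gnaz), beside 11.7% of all tested genes (5.89% higher and 5.8% lower in KO). At CT19 the test called 3 of the 8, all higher in KO, beside 5.19% of all tested genes (2.89% higher and 2.31% lower in KO). At CT22 it called 1, Akap5, beside 1.53% (0.901% higher and 0.627% lower), and at CT1 again Akap5 alone, beside 1.58% (1.06% higher and 0.515% lower). At CT10 it called 7, of which 6 were higher in KO and 1 was lower, beside 10.2% (7.2% higher and 3.02% lower). The KO and WT libraries did not overlap for 1 of the 8 at CT19 (10.1% of all tested genes), 3 at CT22 (6.71%), 1 at CT1 (6.75%) and 7 at CT10 (19.6%).

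**Figure D2:**
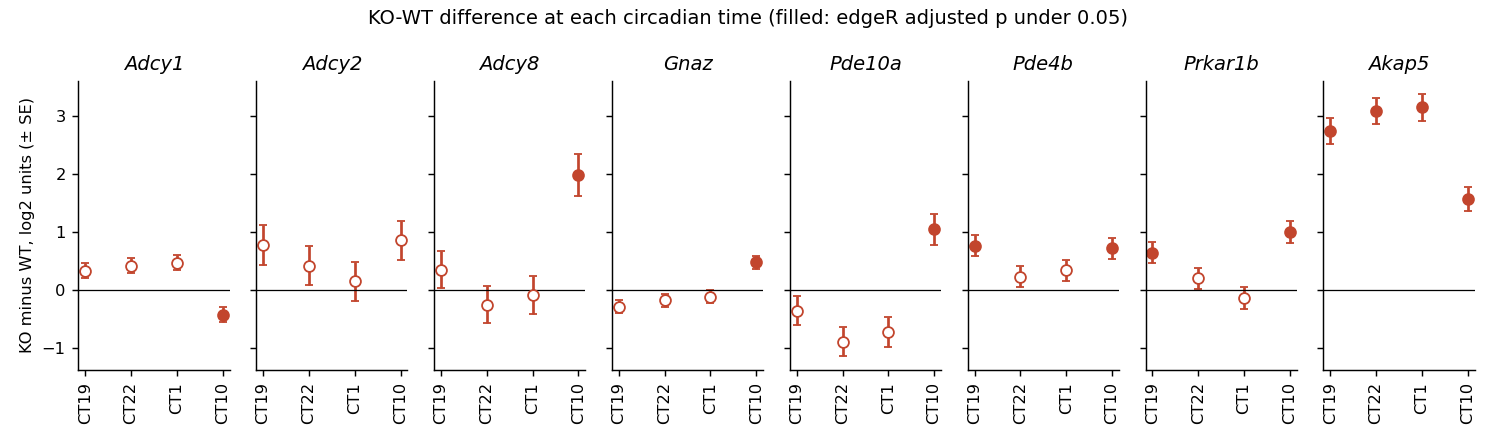
KO minus WT in log2 units at CT19, CT22, CT1 and CT10 (x axis) for each gene, with the standard error as bars and filled points where edgeR's adjusted p is under 0.05. Akap5 is filled at all 4 times, from 1.56 at CT10 to 3.14 at CT1. Adcy1, Adcy8, Pde10a, Prkar1b and Gnaz change sign between CT1 and CT10.

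Expressed per kilobase of exon, the level over each genotype's libraries spanned more than 2 orders of magnitude. In KO the order ran from Gnaz with 85.1 CPM per kb, through Adcy1 with 43.8, Prkar1b with 4.14, Adcy2 with 2.27, Akap5 with 1.78, Pde4b with 1.04 and Pde10a with 0.753, to Adcy8 with 0.187 (means, n = 16). In WT it ran from Gnaz with 89.2 CPM per kb, through Adcy1 with 39.5, Prkar1b with 3.10, Adcy2 with 1.55, Pde10a with 1.04, Pde4b with 0.730 and Akap5 with 0.310, to Adcy8 with 0.150. By its mean Akap5 thus stood above Pde4b and Pde10a in KO and below both in WT. In KO the ranges of Gnaz and Adcy1, of Adcy1 and Prkar1b, and of Pde10a and Adcy8 did not overlap, and all other neighbours in the KO order overlapped. In WT the ranges of Adcy1 and Prkar1b alone were separate among neighbours.

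Gnaz encodes the alpha subunit of Gz, an inhibitory G protein that lowers adenylyl cyclase activity and hydrolyses GTP slowly. The gene lies at chr10:74967177-75016907 of GRCm38 on the plus strand (ENSMUSG00000040009). At CT10 Gnaz had 305, 239, 296 and 327 CPM in the KO libraries, and 231, 213, 196 and 203 CPM in the WT libraries. Every KO library of CT10 was above every WT library of CT10, and the fitted difference was 0.47 ± 0.11 (log2, SE, adjusted p = 0.00695). At CT19 it averaged 300.3 ± 54.8 CPM in KO and 369 ± 22.6 in WT, at CT22 316 ± 38.8 in KO and 359 ± 39.5 in WT, and at CT1 321 ± 33.8 in KO and 350.1 ± 19.5 in WT (SD, n = 4). The differences at these 3 times were -0.30, -0.18 and -0.13 and were not called singly. With CT10 left out, a contrast added after the data were seen, Gnaz was lower in KO over the mean of the other 3 times (-0.20 ± 0.06, adjusted p = 0.0386). With CT10 included the mean difference was -0.034 ± 0.056 (adjusted p = 0.731).

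The change of Gnaz with time lay in WT. All 4 WT libraries of CT10 were below the other 12 WT libraries, which held 320 to 413 CPM, a separation that 5.5% of all tested genes showed in either direction. In WT the group means spanned 0.81 log2 units over the 4 times (adjusted p = 2.71e-05), against 0.14 in KO (adjusted p = 0.901). The KO-WT difference itself varied with time (interaction, adjusted p = 0.0199), but this call was lost when any of 6 CT10 libraries was left out, KO replicates 2, 4 and 5 and WT replicates 2, 4 and 5.

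Adcy1 encodes a cyclase that calcium and calmodulin stimulate, and it was by far the most abundant of the 3 cyclases per kilobase. The gene spans chr11:7063489-7178506 on the plus strand (ENSMUSG00000020431). At CT10 it had 621, 599, 474 and 477 CPM in KO, and 667, 790.0, 688 and 793 CPM in WT. All KO libraries of CT10 were below all WT libraries of CT10, and the difference was -0.44 ± 0.13 (log2, SE, adjusted p = 0.0270). This call was lost when KO replicate 4 or 5, or WT replicate 2 or 5, of CT10 was left out (adjusted p = 0.0766 to 0.0925).

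At the other times Adcy1 stood the other way round. It averaged 478 ± 91.0 CPM in KO and 381 ± 47.7 in WT at CT19, 546 ± 60.1 in KO and 409.8 ± 38.2 in WT at CT22, and 625 ± 36.3 in KO and 454 ± 82.5 in WT at CT1 (SD, n = 4). The differences of 0.33, 0.41 and 0.46 were not called singly, although at CT22 all KO libraries were above all WT libraries. With CT10 left out, a contrast added after the data were seen, Adcy1 was 0.40 ± 0.07 higher in KO over the mean of the other 3 times (adjusted p = 0.000397). With CT10 included it was 0.19 ± 0.06 (adjusted p = 0.0386), a call lost when any of 16 of the 32 libraries was left out (adjusted p up to 0.0745). The KO-WT difference varied with time (interaction, adjusted p = 0.0112), and the WT libraries of CT10 were above all other WT libraries, which held 310.3 to 571 CPM.

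The promoter of Adcy1 is shown because it holds a canonical E-box, the element bound by the CLOCK and BMAL1 factors that PER proteins repress. The sequence is RefSeq's, from 250 bases before to 50 after the annotated start in GRCm38.p6, at chr11:7063183-7063482 on the plus strand, with the E-box in capitals at positions -169 to -164 from the start. Of 32851 promoters of this length, 7.15% hold the E-box CACGTG.
Adcy1: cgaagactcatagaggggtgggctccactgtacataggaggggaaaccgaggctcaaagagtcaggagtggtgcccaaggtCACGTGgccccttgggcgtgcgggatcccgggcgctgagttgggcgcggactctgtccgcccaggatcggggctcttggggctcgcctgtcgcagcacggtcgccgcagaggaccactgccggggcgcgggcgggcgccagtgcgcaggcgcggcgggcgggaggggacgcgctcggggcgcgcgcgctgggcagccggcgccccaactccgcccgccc
The match is a description of the letters. No GENCODE transcript of Adcy1 held the bases that follow this start near its beginning, and the printed stretch ends before the first base of the gene given above. The counts are per gene and do not tell which start was used.

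Adcy8, the other cyclase that calmodulin stimulates, was the least abundant of the 8 genes. Adcy8 lies at chr15:64697084-64922296 on the minus strand (ENSMUSG00000022376). At CT10 it had 1.43, 1.86, 1.59 and 1.40 CPM in KO, and 0.326, 0.526, 0.464 and 0.277 CPM in WT. These were 41, 59, 52 and 39 raw counts in KO, and 11, 17, 13 and 9 in WT. The WT counts were thus near the filter's minimum count of 10. All KO libraries of CT10 were above all WT libraries of CT10, and the difference of 1.97 ± 0.36 (log2, SE, adjusted p = 0.000494) was the largest of the 8 at that time. Elsewhere it averaged 1.80 ± 0.559 CPM in KO and 1.41 ± 0.418 in WT at CT19, 1.55 ± 0.449 in KO and 1.87 ± 0.292 in WT at CT22, and 1.17 ± 0.267 in KO and 1.23 ± 0.737 in WT at CT1 (SD, n = 4). These differences, 0.35, -0.26 and -0.090, were not called. Over the mean of the 4 times Adcy8 was 0.49 ± 0.17 higher in KO (adjusted p = 0.0402), and over the 3 times other than CT10 the difference was -0.0017 (adjusted p = 0.996). The mean call was also lost when any of 16 of the 32 libraries was left out (adjusted p up to 0.0709) and with no filter on low counts (adjusted p = 0.0573). The interaction with time (adjusted p = 0.0267) was lost when KO replicate 3 or 4 or WT replicate 1 or 5 of CT10 was left out.

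Adcy2 encodes a cyclase that calcium does not stimulate and that G protein beta-gamma subunits activate together with Gs. Its locus is chr13:68620043-68999541 on the minus strand (ENSMUSG00000021536), and shares 189 bases of exon with an antisense gene of 9 counts in all. It averaged 9.56 ± 3.21 CPM in KO and 6.53 ± 1.96 in WT (SD, n = 16 each), with a range of 3.77 to 15.6 in KO and 3.46 to 9.81 in WT. The genotypes overlapped at all 4 times, and Adcy2 was called at none of them, with differences of 0.77 (CT19), 0.41 (CT22), 0.14 (CT1) and 0.85 (CT10). Over the mean it was 0.54 ± 0.17 higher in KO (log2, SE, adjusted p = 0.0267). That call was lost without KO replicate 2 of CT19 or KO replicate 4 of CT1 (adjusted p = 0.0519 and 0.0556), with no filter on low counts (adjusted p = 0.0641), with the replicate number as a block (adjusted p = 0.0917) and with CT10 left out (adjusted p = 0.144). Adcy2 showed no called difference with time in KO (adjusted p = 0.883) or in WT (adjusted p = 0.904).

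Pde10a encodes a phosphodiesterase of both cAMP and cGMP, and it showed the widest swing with time in WT of the 8 genes. The gene is at chr17:8525372-8986648 on the plus strand (ENSMUSG00000023868). At CT10 Pde10a had 5.64, 7.16, 7.06 and 9.95 CPM in KO, and 3.56, 4.11, 2.86 and 3.90 CPM in WT. At CT22 it had 9.12, 11.2, 8.79 and 13.4 CPM in KO, and 19.5, 16.05, 28.6 and 14.8 CPM in WT. All KO libraries were above all WT libraries at CT10 and below all of them at CT22, so the order of the genotypes turned round between these times.

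The difference at CT10 was 1.04 ± 0.27 (log2, SE, adjusted p = 0.0118). At CT19, CT22 and CT1 it was -0.36, -0.90 and -0.74 and was not called (adjusted p = 0.438, 0.0786 and 0.176). With CT10 left out, a contrast added after the data were seen, the mean of the other 3 times was 0.67 lower in KO (log2 difference -0.67 ± 0.15, adjusted p = 0.00280). With CT10 included the mean difference was -0.24 ± 0.13 (adjusted p = 0.223). The difference varied with time (interaction, adjusted p = 0.0102). In WT, group means spanned 2.45 log2 units (adjusted p = 4.04e-06) and the 4 WT libraries of CT10 were below the other 12, which held 9.20 to 28.6 CPM. In KO, group means spanned 0.55 log2 units (adjusted p = 0.677).

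RefSeq places a pair of starts of Pde10a in its promoter table, and both are shown because Pde10a moved furthest with time in WT. They lie in GRCm38.p6 on the plus strand, at chr17:8801495-8801794 and chr17:8849735-8850034. Neither holds the E-box, the D-box (TTATGTAA or TTATGCAA), the cAMP response element TGACGTCA or its short form TGACG on either strand, so no letters are in capitals. The D-box is found in 1.66%, the full element in 1.79% and the short form, which the full element contains, in 20.8% of the 32851 promoters.
Pde10a start 1: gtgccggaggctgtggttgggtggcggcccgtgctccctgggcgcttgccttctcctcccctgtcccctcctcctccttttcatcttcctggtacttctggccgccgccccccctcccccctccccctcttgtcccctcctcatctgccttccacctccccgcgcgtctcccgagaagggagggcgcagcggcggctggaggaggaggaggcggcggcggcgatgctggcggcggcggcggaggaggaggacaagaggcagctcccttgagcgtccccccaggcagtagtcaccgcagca
Pde10a start 2: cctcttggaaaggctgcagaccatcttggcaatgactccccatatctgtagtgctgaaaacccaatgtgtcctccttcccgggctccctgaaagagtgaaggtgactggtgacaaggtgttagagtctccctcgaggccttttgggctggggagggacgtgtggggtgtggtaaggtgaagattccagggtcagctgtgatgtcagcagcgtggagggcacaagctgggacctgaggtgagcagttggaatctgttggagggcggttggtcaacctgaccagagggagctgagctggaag
The GC content was 71.3% at start 1 and 56.7% at start 2.

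Pde4b encodes a phosphodiesterase that acts on cAMP alone. The gene spans chr4:102087543-102607259 on the plus strand (ENSMUSG00000028525). Over the mean of the 4 times it was 0.50 ± 0.09 higher in KO (log2, SE, adjusted p = 0.000252), with 10.99 ± 2.67 CPM in KO and 7.71 ± 1.15 in WT (SD, n = 16 each). At CT19 it had 15.01, 15.2, 14.5 and 8.79 CPM in KO, and 10.1, 7.43, 6.31 and 7.82 CPM in WT. The lowest KO library there lay among the WT values, and the difference was 0.75 ± 0.18 (adjusted p = 0.0146). At CT10 it had 13.4, 9.24, 12.1 and 9.01 CPM in KO, and 7.53, 5.91, 6.17 and 7.16 CPM in WT, without overlap, and the difference was 0.71 ± 0.18 (adjusted p = 0.0123). The CT19 call was lost without KO or WT replicate 3 of CT19, and the CT10 call without KO replicate 2 or 4 or WT replicate 2 of CT10 (adjusted p = 0.0524 to 0.0700). Pde4b showed no called difference with time in KO (adjusted p = 0.496) or in WT (adjusted p = 0.474), and its interaction was not called (adjusted p = 0.415).

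Prkar1b encodes the RI-beta regulatory subunit of kinase A, which is found mainly in neurons. Its locus is chr5:139017306-139150001 on the minus strand (ENSMUSG00000025855), and shares 341 bases of exon with a gene of 1014 counts in all on the same strand. At CT10 it had 16.7, 11.7, 17.8 and 13.1 CPM in KO, and 7.88, 6.40, 7.49 and 8.17 CPM in WT. These groups did not overlap, and the difference was 0.99 ± 0.19 (log2, SE, adjusted p = 0.000846). At CT19 it had 20.1, 26.9, 20.8 and 16.1 CPM in KO, and 18.3, 11.1, 11.6 and 12.9 CPM in WT. There the difference was 0.64 ± 0.18 (adjusted p = 0.0401), with the highest WT library above the lowest KO library, and leaving out any of 6 libraries of CT19 took the call away (adjusted p = 0.0692 to 0.163).

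At CT22 and CT1 Prkar1b differed by 0.19 and -0.14, and neither was called. Over the mean it was 0.42 ± 0.09 higher in KO (adjusted p = 0.00210), and with CT10 left out 0.23 ± 0.11 (adjusted p = 0.166). In WT its group means spanned 0.95 log2 units (adjusted p = 0.00318) and the CT10 libraries were below all other WT libraries. In KO they spanned 0.97 log2 units, from 10.7 ± 1.18 CPM at CT1 to 20.97 ± 4.44 at CT19 (SD, n = 4), which was not called by edgeR (adjusted p = 0.164) and was called by DESeq2 (adjusted p = 0.00934). The interaction was not called by edgeR (adjusted p = 0.0573), was called by DESeq2 (adjusted p = 0.00831), and was called by edgeR when any of 7 libraries was left out.

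Akap5 encodes a membrane-bound scaffold that holds kinase A together with other kinases and the phosphatase calcineurin. Akap5 lies at chr12:76324891-76334153 on the plus strand (ENSMUSG00000021057). At CT19 Akap5 had 15.04, 7.27, 13.4 and 8.61 CPM in KO, and 1.86, 1.65, 1.48 and 1.68 CPM in WT. At CT22 it had 8.87, 11.2, 15.7 and 13.4 CPM in KO, and 1.92, 1.22, 1.497 and 1.16 CPM in WT. Every KO library of these times was more than 3 times the highest WT library of the same time.

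At CT1 Akap5 had 16.5, 15.2, 10.4 and 14.1 CPM in KO, and 1.66, 1.64, 1.58 and 1.46 CPM in WT. At CT10 it had 10.8, 10.6, 12.7 and 10.2 CPM in KO, and 5.01, 4.05, 2.998 and 2.95 CPM in WT. The lowest KO library of any time, 7.27 CPM, was above the highest WT library of any time, 5.01 CPM, a separation of 16 against 16 libraries that 65 of the 17871 tested genes (0.364%) showed with KO higher. The WT libraries of CT10 were above all other WT libraries, which held 1.16 to 1.92 CPM.

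For Akap5 the difference at CT19 was 2.73 ± 0.23, that at CT22 3.08 ± 0.23, that at CT1 3.14 ± 0.23 and that at CT10 1.56 ± 0.21 (log2, SE), and all 4 were called (adjusted p = 7.67e-10, 9.65e-11, 4.34e-11 and 1.02e-05). Over the mean it was 2.63 ± 0.11, or 6.18-fold (adjusted p = 9.92e-18), and leaving out any library kept it between 2.58 and 2.67. The difference varied with time (interaction, adjusted p = 0.00616). In WT the group means spanned 1.37 log2 units (adjusted p = 7.83e-05), and in KO 0.34 (adjusted p = 0.770). Of 15 other tested genes within 500 kb of Akap5, only Mthfd1, an enzyme of folate metabolism, was called over the mean, at 0.25 ± 0.07 (adjusted p = 0.00937), and the 15 ranged from -0.40 to 0.25.

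The promoter of Akap5 is shown because this gene carried the genotype difference at every time. It lies at chr12:76324641-76324940 of GRCm38.p6 on the plus strand, has a GC content of 70.7% and holds none of the 4 motifs on either strand, so no letters are in capitals.
Akap5: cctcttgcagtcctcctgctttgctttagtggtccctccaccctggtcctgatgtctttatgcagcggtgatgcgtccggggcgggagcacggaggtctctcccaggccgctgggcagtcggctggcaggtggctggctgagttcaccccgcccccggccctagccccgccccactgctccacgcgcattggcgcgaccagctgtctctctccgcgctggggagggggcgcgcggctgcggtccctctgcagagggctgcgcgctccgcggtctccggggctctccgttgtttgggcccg
No match says only that these letters are not in these 300 bases. RefSeq's promoter table held 6 of the 8 genes, all but Adcy8 and Gnaz. Among the starts not printed, the short form of the cAMP response element lay at -34 to -30 of Pde4b start 1 and at -49 to -45 of Prkar1b start 2, and an E-box at -229 to -224 of Prkar1b start 3. As for the Adcy1 start, no GENCODE transcript matched Prkar1b start 3.

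By the test of any difference among the 4 times, 0 of the 8 genes were called in KO and 6 were called in WT, all but Adcy2 and Pde4b. The background was 0.0056% of all tested genes in KO, which is 1 gene, and 14.6% in WT. In KO edgeR's unadjusted p was under 0.05 for 2 of the 8, Adcy1 and Prkar1b, and DESeq2 called Prkar1b alone. The interaction test called 5 of the 8, Adcy1, Adcy8, Pde10a, Akap5 and Gnaz, beside 1.62% of all tested genes.

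The contrast of CT10 with the mean of the other 3 times, added after the data were seen and given as a size only, shows where the WT range came from. In KO it was -0.0089 for Adcy1, 0.25 for Adcy2, 0.079 for Adcy8, -0.48 for Pde10a, 0.0078 for Pde4b, -0.063 for Prkar1b, -0.17 for Akap5 and -0.099 for Gnaz (log2 units). In WT it was 0.83 for Adcy1, -0.15 for Adcy2, -1.90 for Adcy8, -2.19 for Pde10a, -0.27 for Pde4b, -0.82 for Prkar1b, 1.26 for Akap5 and -0.77 for Gnaz. Adcy1 and Akap5 were thus higher and Adcy8, Pde10a, Prkar1b and Gnaz lower at CT10 than at the other times in WT. With CT10 left out of the test, no gene of the 8 was called for time in WT or for the interaction, and neither was any other tested gene.

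The inner retina level differed between the genotypes. In WT its mean was lowest at CT10, at 3.20 against 3.70 to 4.16 at the other times. In KO it was 4.19 at CT10 and lowest at CT1, at 3.87. Each gene was therefore also read against this level. In a fit with this level as a covariate, 3 of the 8 genes rose with it: Adcy8 by 0.98 ± 0.28 log2 units per log2 unit of the level (SE, adjusted p = 0.0167), Prkar1b by 0.73 ± 0.13 (adjusted p = 0.000122) and Pde4b by 0.71 ± 0.13 (adjusted p = 0.000399). The background of genes called for this slope in either direction was 16% of all tested genes. The slope was 0.58 ± 0.32 for Adcy2, 0.23 ± 0.26 for Pde10a, 0.22 ± 0.21 for Akap5, 0.15 ± 0.11 for Gnaz and 0.030 ± 0.13 for Adcy1, and these were not called.

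**Figure D3:**
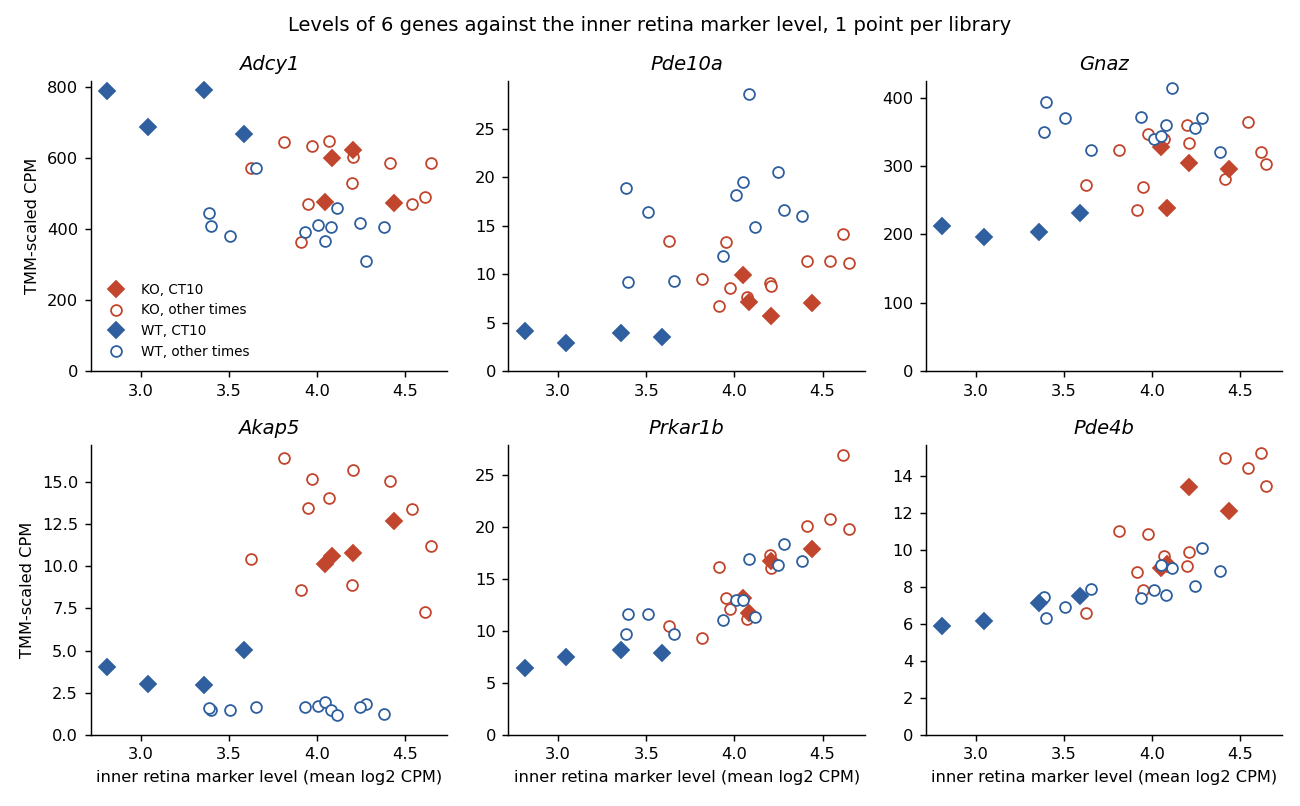
TMM-scaled CPM of 6 genes (y axis, from 0) against the inner retina level (x axis, mean log2 CPM of 40 marker genes), with 1 point per library, KO in red and WT in blue, and filled diamonds for CT10. Prkar1b and Pde4b climb along the axis in both genotypes, while Akap5 lies in a high KO band and a low WT band and the WT libraries of CT10 stand apart for Adcy1, Pde10a and Gnaz.

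With the inner retina level in the fit, 1 of the 8 genes, Akap5, was called over the mean of the 4 times, at 2.53 ± 0.14 (adjusted p = 3.18e-14). At each single time Akap5 was again the sole gene of the 8 called in that fit, with 1.34 ± 0.30 at CT10 (adjusted p = 0.0133). The differences over the mean became 0.19 ± 0.09 for Pde4b, 0.11 ± 0.08 for Prkar1b, 0.080 ± 0.18 for Adcy8, 0.30 ± 0.21 for Adcy2 and 0.18 ± 0.09 for Adcy1 (adjusted p = 0.273 to 0.865). At CT10 Pde4b was at 0.0058 ± 0.19 and Prkar1b at 0.26 ± 0.18, while Adcy1 kept a difference of -0.47 ± 0.18, Pde10a one of 0.82 ± 0.37 and Gnaz one of 0.32 ± 0.16, none of them called. The CT10 call of Adcy8 was lost in that fit too. Since the level did not overlap between the genotypes at CT10, the part of the markers and that of the genotype in the CT10 differences cannot be told apart by this fit.

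**Figure D4:**
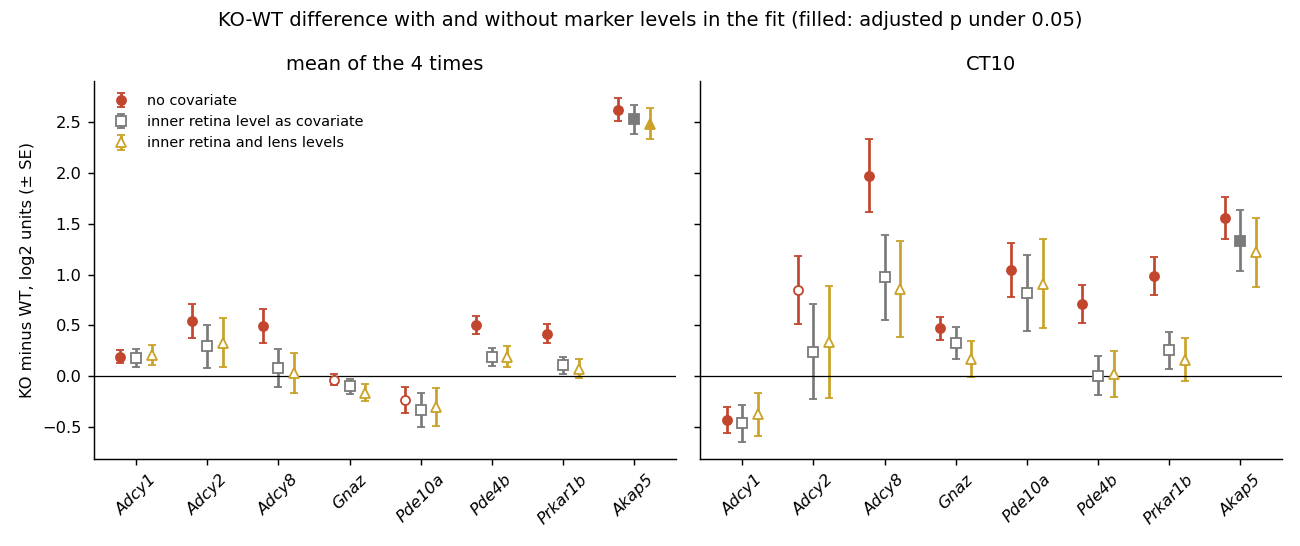
KO minus WT in log2 units with its standard error (y axis) for the 8 genes, over the mean of the 4 times (left) and at CT10 (right), with no covariate, with the inner retina level and with the inner retina and lens levels; filled symbols have an adjusted p under 0.05. Akap5 stays at 2.63, 2.53 and 2.49 over the mean, while Pde4b at CT10 is at 0.0058 with the inner retina level.

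The differences with time in WT held for 4 of the 6 genes in the fit with the inner retina level: Adcy1 (range 0.97, adjusted p = 0.00143), Pde10a (2.23, adjusted p = 0.000704), Akap5 (1.57, adjusted p = 0.00147) and Gnaz (0.71, adjusted p = 0.00284). They were lost for Adcy8 (adjusted p = 0.149) and Prkar1b (adjusted p = 0.435). In WT, CT19 replicate 3 and CT1 replicates 4 and 5 had an inner retina level inside the range of the WT libraries of CT10. Their levels of 3.39 to 3.51 were above those of WT replicates 2, 4 and 5 of CT10 (2.81, 3.04 and 3.36). WT replicate 1 of CT10 was above them, at 3.59. These 3 libraries lay in the upper part of the range and were not matched in level to the WT libraries of CT10. Pde10a was at 9.20, 18.9 and 16.5 CPM in these 3, against at most 4.11 in the WT libraries of CT10, and Gnaz was at 394, 350.1 and 371 CPM, against at most 231. Adcy1 was at 409, 445 and 382 CPM in them, below all WT libraries of CT10, and Akap5 at 1.48, 1.58 and 1.46 CPM, also below all of them. Prkar1b was at 11.6, 9.66 and 11.6 CPM in them, above all WT libraries of CT10, which held at most 8.17, although its call for time was lost in the fit. Adcy8, at 0.847, 1.02 and 0.387 CPM, overlapped the WT libraries of CT10.

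Lens markers moved too, with a level of 4.75 ± 1.52 in KO and 7.28 ± 0.900 in WT at CT10 (mean log2 CPM of 14 genes, SD, n = 4), and summed lens CPM at CT10 ran from 355 to 2758 in KO and from 2357 to 8958 in WT. With the lens level added to the inner retina level, Akap5 remained called over the mean (2.49 ± 0.15, adjusted p = 5.75e-13) and at CT19, CT22 and CT1, and was 1.22 ± 0.34 at CT10 (adjusted p = 0.146). In that fit Adcy1, Pde10a, Akap5 and Gnaz kept their calls for time in WT (adjusted p = 0.00263 to 0.0198), and none of the 8 kept an interaction call. Of all tested genes, 9.88% were called higher and 6.4% lower in KO over the mean. Of the whole marker lists, 11 of 14 bipolar, 4 of 12 amacrine, 7 of 14 Müller and 4 of 5 horizontal cell genes were called higher in KO over the mean and none lower. Of the other lists, 1 of 9 ganglion cell, 3 of 6 vascular and 2 of 6 microglial genes were called higher, 0 of 10 pigment epithelium genes were called, 1 of 14 lens genes was called lower, and rod and cone lists had 1 gene higher and 4 lower each, of 10 and 8. Summed CPM of the bipolar list at CT10 was 759 to 953 in KO and 444 to 639 in WT, of the amacrine list 128 to 153 in KO and 87.3 to 111 in WT, and of the Müller list 1180.0 to 1584 in KO and 686 to 1042 in WT. Their part in the differences of the 8 genes was not tested beyond these fits.

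A total of 8 lists of cAMP signalling held 85 genes, the 8 genes among them, and 73 were tested. Leaving out the 8, 65 were tested, and over the mean 11 of them rose and 3 fell in KO, or 21.5%, beside the 16.3% of all tested genes. At CT10 18 of the 65 rose and 2 fell, or 30.8%, beside 10.2% of all tested genes. For time, 0 of the 65 were called in KO and 20, or 30.8%, in WT, beside 14.6% of all tested genes. The part of the inner retina markers in these counts was not tested.

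Of the 8 cAMP lists, phosphodiesterases had the most calls at CT10. There 10 of 13 tested members rose and none fell, beside 7.2% higher and 3.02% lower of all tested genes. Their median difference was 0.78 (log2) against -0.0058 for all tested genes. The inner retina marker lists also rose at CT10, with 12 of 14 bipolar, 4 of 12 amacrine and 8 of 14 Müller genes called higher and none lower (medians 1.34, 0.72 and 0.93). Beside Pde10a and Pde4b the phosphodiesterases that rose included Pde8a and Pde8b, enzymes of high affinity for cAMP. Pde8b was at 224 ± 17 CPM in KO and 153 ± 17.4 in WT at CT10 (SD, n = 4, difference 0.55, adjusted p = 4.20e-05), and Pde8a at 180 ± 4.44 CPM in KO and 128 ± 16.2 in WT (0.49, adjusted p = 0.00163). Like Pde10a, both were at their lowest at CT10 in WT and both had a called interaction (adjusted p = 0.000514 for Pde8b and 0.00162 for Pde8a). Pde1b, a calmodulin-stimulated enzyme, was at 13.5 ± 1.37 CPM in KO and 5.39 ± 2.21 in WT at CT10 (1.33, adjusted p = 0.000813), and Pde4a, a relative of Pde4b, at 5.40 ± 0.837 CPM in KO and 3.10 ± 0.503 in WT (0.80, adjusted p = 0.00403). Over the mean 7 of the 13 rose, among them Pde3a (0.40), Pde1b (0.45) and Pde1c (0.46), and none fell, beside 9.88% higher and 6.4% lower of all tested genes.

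**Figure D5:**
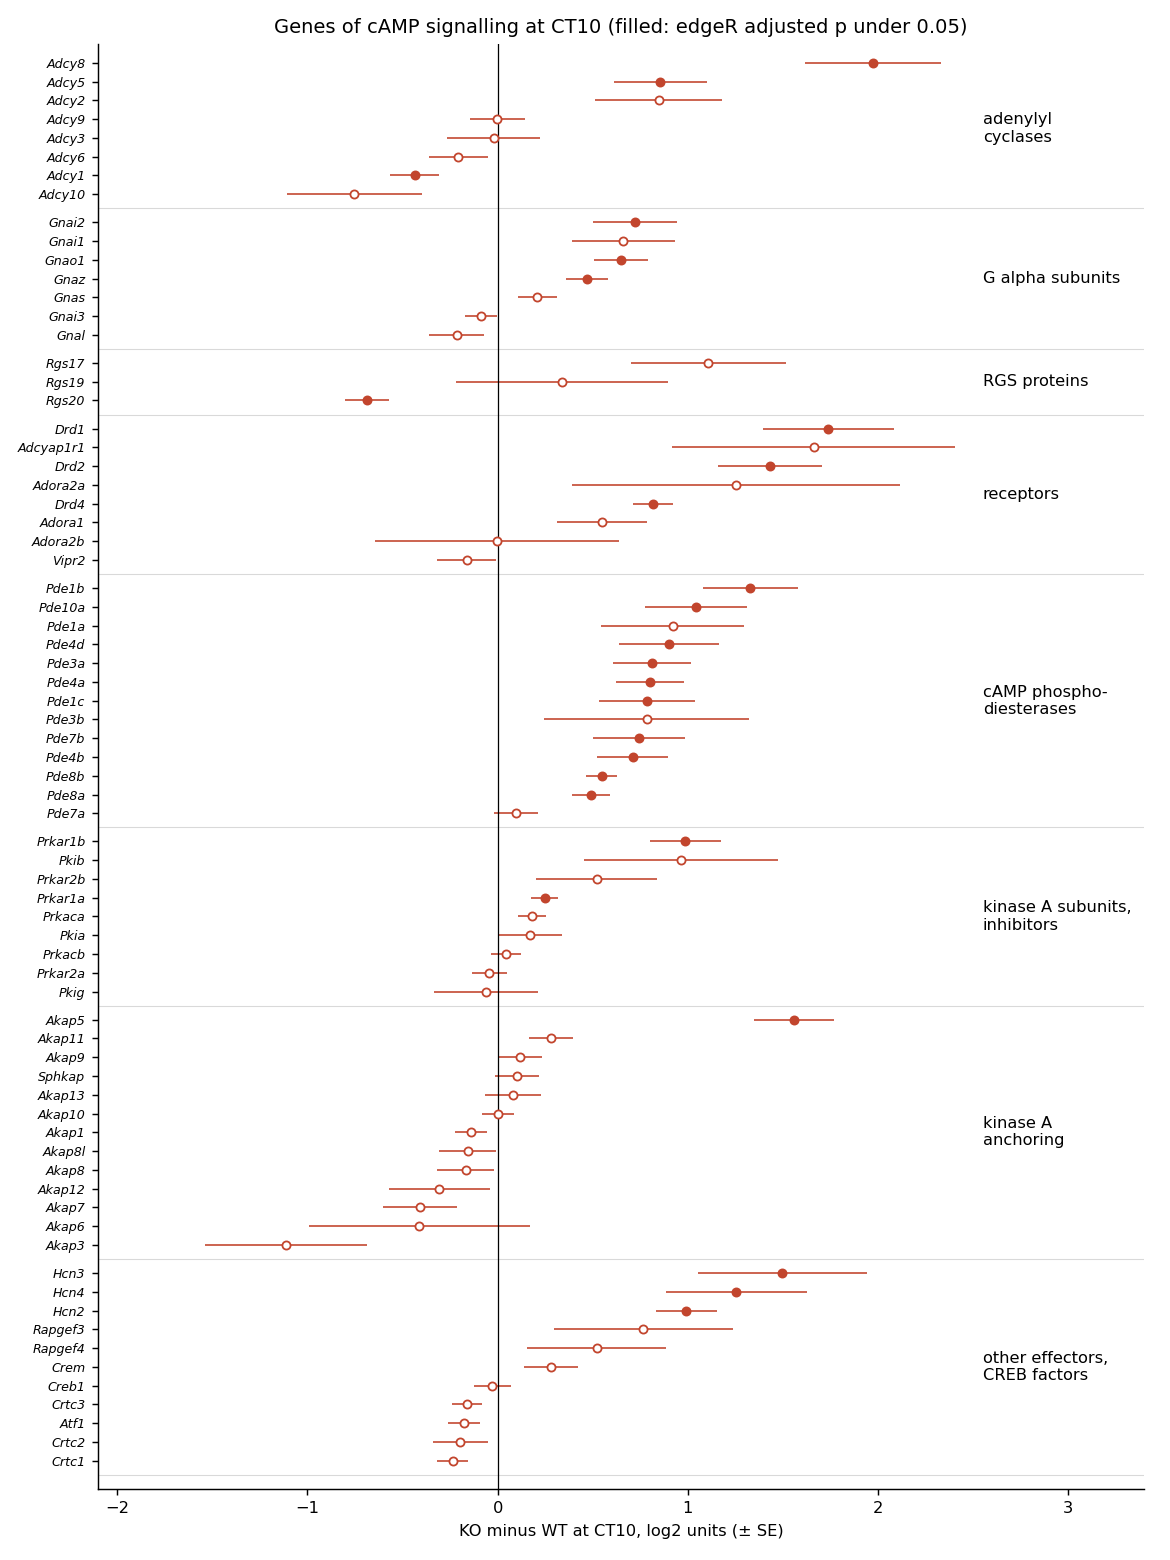
KO minus WT at CT10 in log2 units with its standard error (x axis) for the tested genes of cAMP signalling (y axis; 1 of the 73 is not drawn), grouped by list, with filled points where edgeR's adjusted p is under 0.05. In the phosphodiesterase list 10 of 13 are filled and all of these lie above 0, while in the anchoring list Akap5, at 1.56, is the sole filled point.

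Among the anchoring proteins Akap5 was the single riser of 13 tested members over the mean, and 2 fell. Of all tested genes, 9.88% rose and 6.4% fell over the mean. Akap1, which anchors kinase A at mitochondria, was at 175 ± 14.9 CPM in KO and 204 ± 24.4 in WT (SD, n = 16, difference -0.22, adjusted p = 0.000529), and Akap12, a scaffold of kinases at the membrane, was at 15.9 ± 3.53 CPM in KO and 22.6 ± 6.14 in WT (-0.50, adjusted p = 0.00977). At CT10 Akap5 was the single call of that list, beside 10.2% of all tested genes. Among the 9 kinase A subunits and inhibitors, Prkar1b was the single call over the mean, and at CT10 Prkar1a, the other RI subunit, joined it with 170 ± 10.6 CPM in KO and 143 ± 8.91 in WT (0.25, adjusted p = 0.0244). Of the 8 cyclases tested, Adcy5 joined the 3 described here, with 5.15 ± 1.11 CPM in KO and 3.88 ± 1.496 in WT over the mean (0.46, adjusted p = 0.00924).

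Beside Gnaz, 2 inhibitory alpha subunits of the 7 tested rose at CT10, Gnao1 with 115 ± 11.6 CPM in KO and 73.4 ± 13.4 in WT (0.65, adjusted p = 0.00322) and Gnai2 with 48.7 ± 7.51 CPM in KO and 29.5 ± 5.83 in WT (0.72, adjusted p = 0.0359). Of all tested genes, 7.2% rose and 3.02% fell at CT10. Rgs20, 1 of 3 tested RGS proteins of its list and known to speed GTP hydrolysis by Gz, went the other way to Gnaz. Rgs20 was at 71.5 ± 8.36 CPM in KO and 115 ± 15.9 in WT at CT10 (-0.69, adjusted p = 0.000268), with a called interaction (adjusted p = 0.00273). The rest of that list was not called at CT10, and the median difference of the 3 was 0.34. Rgs20 shares 127 bases of exon with Atp6v1h on the opposite strand, so its counts are less certain. Pde8b, Pde3a and Gnao1 share exon bases with antisense genes of 945, 285 and 155 counts in all.

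Of the 8 receptors tested, the dopamine D4 receptor Drd4 was at 580.2 ± 102 CPM in KO and 329 ± 29.6 in WT at CT10 (0.82, adjusted p = 6.14e-06). Drd1 (1.74) and Drd2 (1.43) were also called there, beside 10.2% of all tested genes. Among the 12 other effectors, Hcn2, a channel that cyclic nucleotides open further, was called higher in KO at each of the 4 times, as was Akap5. Hcn2 was at 26.4 ± 4.14 CPM in KO and 13.8 ± 2.36 in WT (SD, n = 16, difference 0.94, adjusted p = 3.02e-10). It was the single riser of that list over the mean, and 1 gene, Crtc3, fell, beside 9.88% higher and 6.4% lower of all tested genes. Crtc3 was at 83.9 ± 4.67 CPM in KO and 93.5 ± 9.35 in WT (difference -0.15, adjusted p = 0.00841). At CT10 3 of the 12 rose, Hcn2, Hcn3 (1.497) and Hcn4 (1.26), and 1 fell, beside 7.2% higher and 3.02% lower of all tested genes.

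Across the 32 libraries, which share groups and marker levels, the genes most like each of the 8 by the highest Pearson's r of log2 CPM fell into different sets. Tested genes of low average level, genes with provisional symbols and pseudogenes were left out of this ranking. Akap5 was most like Col4a3 (r = 0.96), Dbp (0.95) and Pdzd8 (0.95), but with group means removed r was 0.13, -0.016 and -0.072, so their likeness lay in the group means. Prkar1b was most like Eef1a2 (0.94), Cend1 (0.93) and Diras1 (0.93), and kept r of 0.87, 0.85 and 0.79 with group means removed. Pde4b was most like Rab11fip4 (0.89), Tns3 (0.88) and Rgs16 (0.86), and Adcy8 like Cacna1i, Kcna2 and Cacna1g (0.89 each). Gnaz was most like Inka2, Zdhhc5 and Aqp1 (0.90 each), with 0.74, 0.73 and 0.83 left without group means. Pde10a was most like Irf7 and Nr4a1 (0.85 each) and Plekhb1 (0.83), Adcy1 like Brca2 (0.88), Utp20 (0.86) and Polq (0.85), and Adcy2 like Neto2 (0.76), Reep1 (0.75) and Srd5a1 (0.74).

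Among themselves the 8 genes were most alike for Pde4b and Prkar1b (r = 0.75), Pde10a and Gnaz (0.74) and Adcy8 and Prkar1b (0.72), and most opposed for Adcy1 and Pde10a (-0.73) and Adcy1 and Gnaz (-0.61). With group means removed, Pde4b and Prkar1b kept 0.57, while Pde10a and Gnaz had 0.019 and Adcy1 and Pde10a -0.26.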

How the data were processed

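RNA sequencing of microdissected photoreceptors gave raw read counts per Ensembl gene for 32 libraries, deposited by the authors in 1 table and not normalized. The submitters' processing notes name Trimmomatic 0.32, HISAT2 2.1.0, Cufflinks and HTSeq 0.11 with build GRCm38.p6. The annotation release, strand setting and handling of multiply mapped reads were not given in the sources used here, so reads of genes overlapping on opposite strands cannot be told apart. Samples were grouped by their labels. The labels number animals, and WT replicate 5 of CT1 names 2 animal numbers and was used as 1 library. The label of WT replicate 5 of CT10 holds the letter R where all others hold L, and the labels do not explain these letters. Same-group libraries were compared in pairs and each pair exceeded the noise of sampling (chi-square over its degrees of freedom, 12 to 107), so no pair looked like repeat sequencing of the same library. This does not test whether the animals were separate, and each library counted as a replicate by its label.

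The analysis used edgeR 4.0.16 in R 4.3.3: filterByExpr (minimum count 10, minimum total 15), TMM scaling, 1 negative binomial fit of 8 group means with 24 residual degrees of freedom, and the robust quasi-likelihood test, with p-values adjusted by Benjamini-Hochberg over 17871 genes and called under 0.05. Time and interaction were F tests, and their size is the range of fitted means, or of KO-WT differences, in log2 units. Marker levels are means of log2 CPM (prior count 2). Lengths, positions and symbols (54079 genes) came from the GENCODE annotation of GRCm38, and promoters from RefSeq. The fit was checked on simulated counts. Alternatives were DESeq2 1.42.0, RLE scaling, no filter, marker covariates, replicate block, libraries of the time alone and leaving out each library. The genes described, the lists and the alternatives were chosen with earlier results of these data known. Named genes were the 8 in every contrast, up to 4 per list called over the mean or at CT10 by smallest p, the 3 most like genes, and called neighbours of Akap5; list genes cited for time or interaction alone were among these. A gene of the lists that this rule named is not reported here.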

Additional observations from a re-analysis of the deposited data

Results flagged for a closer look

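In the KO group at CT19, Pde4b in replicate 5 stood at 8.79 CPM, far below the other 3 libraries, which held 14.5 to 15.2 CPM. It was the 1 of 64 gene and group pairs whose extreme library lay past Dixon's critical value, and chance gives about 1 in 20 groups.

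The KO-WT difference varied among the 4 times, by edgeR's interaction test, for Akap5 (adjusted p = 0.00616), Pde10a (adjusted p = 0.0102), Adcy1 (adjusted p = 0.0112), Gnaz (adjusted p = 0.0199) and Adcy8 (adjusted p = 0.0267). The difference of Pde10a and Gnaz was negative at CT19, CT22 and CT1 and positive at CT10. That of Adcy1 was positive at those 3 times and negative at CT10, while that of Akap5 was positive throughout and smallest at CT10.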

How the results depend on the processing

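RLE scaling changed no call of the 8 genes in 64 results. With the inner retina level as covariate, genes called were 869 over the mean (against 2909), 450 at CT19 (against 928), 240 at CT10 (against 1825), 0 for time in KO (against 1), 1502 for time in WT (against 2615) and 165 for the interaction (against 289). Of the 8, 1 was called over the mean, at CT19, at CT10 and for the interaction, against 6, 3, 7 and 5. With the lens level added these were 609, 390, 67, 0, 444 and 4 genes, and 1, 1, 0 and 0 of the 8. Adcy8 at CT19 turned to -0.096 and -0.088 in the 2 fits.

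Without the filter on low counts 546 genes were called at CT19 and 5 for time in KO. DESeq2 called 1505 genes at CT19, 445 at CT22, 480 at CT1, 183 for time in KO and 913 for the interaction. It called 2 of the 8 at CT22 (Pde10a with Akap5), 2 at CT1 (Adcy1 with Akap5) and 1 for time in KO. Fitting the libraries of that time alone called 194, 120 and 180 genes at CT19, CT22 and CT1, and 1 of the 8 at CT19.

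The contrasts without CT10 were added after the data were seen. With CT10 left out, 5 of the 8 were called over the mean of the other 3 times: Adcy1, Pde4b and Akap5 higher in KO, and Pde10a (-0.67) and Gnaz (-0.20), neither called with CT10 included, lower in KO. Adcy8 turned to -0.0017 and with Adcy2 and Prkar1b lost its call, and 0 genes and 0 of the 8 were called for time in WT and for the interaction.

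Replicate numbers did not pair the samples: 3 of 12 same-numbered pairs had a correlation of deviations over 0.1 (-0.10 to 0.21). With the number as a replicate block, 132 genes were called at CT22 and 160 at CT1, with Adcy1 beside Akap5 in both (2 of the 8 each), 0 for time in KO and 1600 for time in WT. Gnaz over the mean turned to 0.041 and Adcy8 at CT1 to 0.057 under the block.

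Leaving out each library in turn gave 2456 to 3278 genes over the mean and 3 to 6 of the 8 (3 without KO replicate 2 of CT19), 423 (without WT replicate 3) to 1164 and 1 to 4 at CT19, 170 to 295 and 1 to 2 at CT22, 189 to 354 and 1 to 2 at CT1, 946 (without WT replicate 2) to 2055 and 5 to 7 at CT10, 0 to 29 and 0 to 1 for time in KO, 1563 to 3144 and 6 for time in WT, and 142 to 429 and 3 to 6 for the interaction. At CT1, Adcy2 ran from -0.23 to 0.38, Adcy8 from -0.38 to 0.31 and Prkar1b from -0.23 to 0.049. The cause of these changes was not tested. Over the mean, Adcy2 and Adcy8 carried the largest standard errors of the 8 (0.17 each), and Adcy8 rested on 9 to 78 counts a library.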
